A study of Homo sapiens with 12 samples.

Results

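BT549 cells depleted of FOSL1 and JUN RNA that had also received olaparib were compared with BT549 cells given neither. The comparison used 6 of the 12 RNA-seq libraries of the series, 3 of the doubly treated cells and 3 of the control cells, and every gene with more than 1 CPM in at least 3 of the 12 libraries. CPM is a gene's read count scaled to the same total in every library, and printed values carry a further scaling factor per library. That rule kept 12122 of the 27046 genes in the count table. BT549 is an established human triple-negative breast cancer line. The doubly treated cells were transfected with siRNA pools to FOSL1 plus JUN and were kept in olaparib for 48 h. The knockdown cells with DMSO carried those pools and received the solvent alone for 48 h. The control cells with olaparib carried a non-targeting siRNA pool and received olaparib for 48 h. The control cells with DMSO carried the non-targeting pool and the solvent for 48 h, so they were transfected and solvent-treated rather than untouched. All groups came from 1 cell line and 1 time, a knockdown lowers RNA without removing the gene, and the olaparib dose is not given in the sources used here. Nothing in the labels tells whether the 3 libraries of a group came from separate cultures, so the p-values measure the spread between these libraries, which may be technical.

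FOSL1 encodes FRA-1 and JUN encodes c-Jun. The pair form dimers of the AP-1 transcription factor, which binds TGA-N-TCA elements and drives genes of invasion, growth and inflammation in mesenchymal breast cancer cells. Olaparib blocks PARP1 and PARP2, which mark DNA breaks with poly(ADP-ribose). Trapped or blocked PARP turns single-strand breaks into replication damage, which cells repair by homologous recombination and answer with checkpoint arrest. The net change is that of the doubly treated cells against cells given neither treatment, and the design also allows it to be set beside each treatment given alone.

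Library totals ran from 14728327 to 39715900 counts in doubly treated cells and from 14320335 to 16823795 counts in control cells with DMSO, and the deepest library was replicate 2 of the doubly treated cells. Among the 7 mesenchymal markers, VIM had 2383 to 4147 CPM over the 12 libraries and CD44 had 1369.7 to 1866 CPM. The markers SPARC, FN1, AXL, ZEB1 and CDH2 were all above 20 CPM in every library. ESR1, PGR, EPCAM and FOXA1, markers of luminal or epithelial cells, stood at or below 0.181 CPM. ERBB2 and GATA3, which were listed as low, were not low, at 96.6 to 130.1 CPM and 22.2 to 38.2 CPM. Of 6 haematopoietic markers only CD14 passed the filter, at 0.706 to 2.57 CPM, and PTPRC stayed at or below 0.471 CPM. Of the 4 endothelial markers PECAM1 reached 0.0594 CPM, and CDH5, VWF and KDR were at 0.

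Both targeted genes fell, as a check of the labels. FOSL1 (Entrez 8061) had 21.7, 22.3 and 19.2 CPM in doubly treated cells, against 74.8, 71.4 and 68.5 CPM in control cells with DMSO. JUN (Entrez 3725) had 49.7, 40.7 and 35.8 CPM in doubly treated cells, against 161, 174 and 155 CPM in control cells with DMSO. No doubly treated library reached the lowest control library for either gene. The net log2 fold change was -1.75 for FOSL1 (SE 0.08, adjusted p = 3.81e-12) and -1.96 for JUN (SE 0.10, adjusted p = 1.39e-09) by edgeR's quasi-likelihood test with Benjamini-Hochberg adjustment. The remaining level was 29.7% of control for FOSL1 and 25.7% for JUN. FOSL1 averaged 26.8 ± 2.67 CPM under knockdown with DMSO and 126 ± 9.92 CPM in control cells with olaparib (mean ± SD, n = 3 each). Olaparib alone raised FOSL1 by 0.81 log2 units, whereas in knockdown cells the drug changed it by -0.32. That last difference put FOSL1 below every other group, a call lost in 5 of 20 alternatives, those without replicate 2 or 3 of the doubly treated cells, without replicate 1 or 2 of the knockdown cells with DMSO and without replicate 1 of the control cells with olaparib. The difference between the net change and the sum of the 2 single changes, the interaction, was -1.14 for FOSL1 (SE 0.11, edgeR adjusted p = 1.88e-05). It held in all 20 alternative settings tried.

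Other members of the AP-1 family moved both ways. Of the 16 tested members, 6 rose and 4 fell, against a background in which 23.8% of all 12122 genes rose and 23.4% fell, which is 47.2% called. FOS, the founding partner of JUN, had 11.4, 11.01 and 11.9 CPM in doubly treated cells, against 3.97, 3.904 and 4.22 CPM in control cells with DMSO, a 2.82-fold rise (edgeR adjusted p = 3.56e-09). JUNB, a weaker activator of the same dimer, had 129.9, 98.5 and 67.4 CPM in doubly treated cells, against 57.3, 55.1 and 55.6 CPM in control cells with DMSO. The doubly treated libraries of JUNB spread widely and all stayed above the control ones (log2 0.82, SE 0.23, edgeR adjusted p = 0.0181). The JUNB call was lost without control replicate 2 (edgeR adjusted p = 0.0517) and without control replicate 3 (edgeR adjusted p = 0.0517). FOSL2, the closest relative of FOSL1, rose by 0.45 log2 units, with 0.99 for olaparib alone and -0.36 for knockdown alone. BATF3, a basic leucine zipper partner of JUN that is low in these cells, fell by 1.18 on the log2 scale from a control mean of 1.14 CPM.

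Across all genes the double treatment changed many RNAs by a little and a smaller set by a lot. At an adjusted p below 0.05, 2882 genes were higher and 2839 lower in doubly treated cells than in control cells with DMSO. These are 23.8% and 23.4% of the tested genes, the shares beside which counts in gene lists are to be read. For 6648 genes (54.8%) the 3 libraries of one group did not overlap the 3 of the other. The median fold among called genes was 1.30, and 435 genes were called with at least a 2-fold change, 232 higher and 203 lower. A test against a 1.5-fold change kept 559 genes, which is 4.61% of those tested, with 305 higher (2.52%) and 254 lower (2.1%). DESeq2 kept fewer past 1.5-fold, 201 higher and 144 lower. Olaparib alone called 5676 genes (46.8%) and knockdown alone 3624 (29.9%). The median absolute log2 change over all tested genes was 0.214 for the double treatment, 0.216 for olaparib alone and 0.150 for knockdown alone. All 3 sets of changes share the control libraries with DMSO, so their values are given side by side and no overlap between them is read. In bulk RNA such as this, a change in how many cells are in a state and a change in RNA per cell cannot be told apart.

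**Figure D1:**
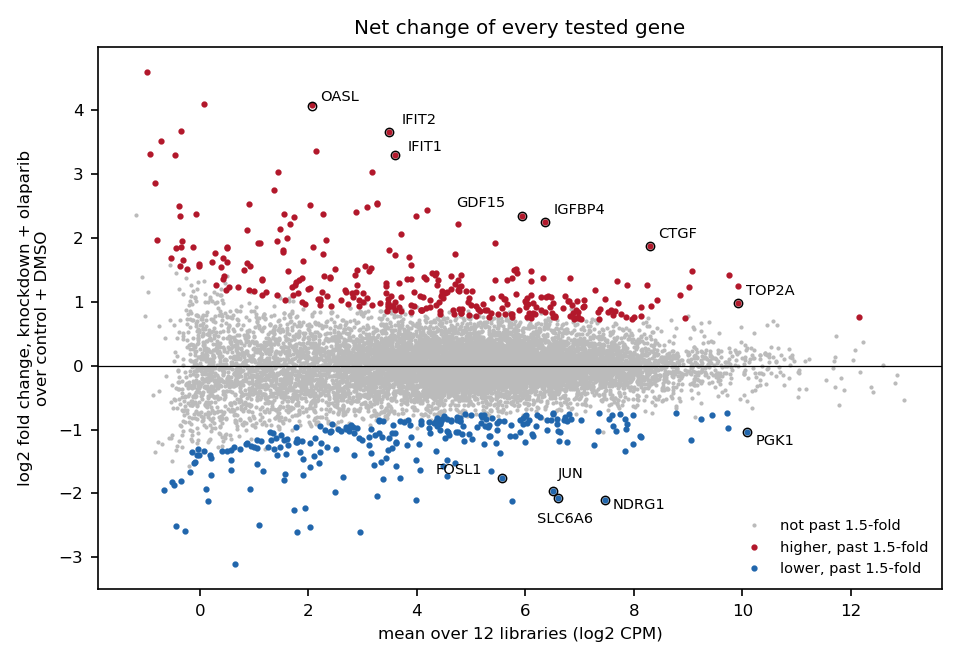
Each point is 1 of the 12122 tested genes, with its mean over the 12 libraries (log2 CPM) on the horizontal axis and its log2 fold change in doubly treated cells over control cells with DMSO on the vertical axis. The 305 genes past 1.5-fold above and the 254 below are coloured, circles mark named genes, and the interferon-stimulated genes OASL and IFIT2 are among the largest rises.

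The largest changes were picked from called genes averaging 3 or more in log2 CPM whose compared libraries did not overlap. Among these, the largest rises were IFIT2, IFIT1 and IFIT3, interferon-induced proteins that bind viral RNA. IFIT2 (Entrez 3433) had 44.6, 46.5 and 49.6 CPM in doubly treated cells, against 2.78, 3.85 and 4.395 CPM in control cells with DMSO. Its net log2 change of 3.66 (SE 0.11, edgeR adjusted p = 1.30e-14) is a 12.6-fold rise, and its interaction was positive at 1.001 (SE 0.17, edgeR adjusted p = 0.002797). Olaparib alone gave IFIT2 a log2 change of -0.31, which was not called, and knockdown alone gave 2.96. IFIT1 rose 9.801-fold and IFIT3 8.17-fold, with olaparib changes of 0.42, which was called, and 0.03, which was not.

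The next rises were secreted proteins, an inhibitor of differentiation factors and a tissue enzyme. ID4, a repressor of basic helix-loop-helix factors, had 27.6, 21.6 and 23.1 CPM in doubly treated cells, against 3.41, 5.36 and 3.44 CPM in control cells with DMSO. TIMP3, an inhibitor of metalloproteinases, had 22.2, 22.5 and 25.9 CPM in doubly treated cells, against 3.76, 4.02 and 4.28 CPM in control cells with DMSO. ID4 rose 5.82-fold and TIMP3 5.82-fold, and both stood above every other group, with olaparib at 1.11 and 1.05 and knockdown at 1.30 and 1.40 log2 units. CLCA2, TGM2, RGS5 and CCL2 had net log2 changes of 2.49, 2.34, 2.07 and 1.81 beside knockdown changes of 2.33, 2.51, 2.11 and 1.57. CRISPLD2, GDF15 and IGFBP4 had net log2 changes of 2.43, 2.35 and 2.25, beside 2.16, 2.27 and 1.87 for olaparib alone. GDF15, a stress-induced cytokine, had 193, 134 and 111 CPM in doubly treated cells, against 29.99, 31.5 and 24.4 CPM in control cells with DMSO. PADI2, which converts arginine to citrulline in proteins, rose 4.68-fold and GUCY1B1, a subunit of the nitric oxide receptor, 3.79-fold. CTGF, also called CCN2, rose 3.66-fold, and olaparib alone raised it by more, 3.04 log2 units.

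By the same selection, the largest falls included both targets and a set of membrane and matrix genes. NDRG1, a hypoxia-induced growth suppressor, had 93.6, 90.99 and 71.6 CPM in doubly treated cells, against 401, 347 and 361 CPM in control cells with DMSO, a 4.31-fold drop (edgeR adjusted p = 4.07e-11). SLC6A6, the taurine transporter, had 49.2, 45.6 and 47.3 CPM in doubly treated cells, against 201, 193 and 203 CPM in control cells with DMSO, a 4.21-fold drop (edgeR adjusted p = 8.28e-15). For these 2 genes the single changes were of like size, -1.21 and -1.22 for olaparib and -0.96 and -0.86 for knockdown, and the interaction was 0.06 for NDRG1 and nearer still to 0 for SLC6A6, and neither was called. AMMECR1, COL13A1, STEAP3, CACNG4, ADGRG1 and PHLDA3 fell with net log2 changes of -2.12, -2.04, -1.65, -1.73, -1.76 and -1.55, and for each of them knockdown alone gave between -2.05 and -1.18. STEAP3 is an iron reductase, COL13A1 a membrane collagen and ADGRG1 an adhesion receptor. DEPP1, a FOXO-induced autophagy regulator, fell by 2.10 log2 units, with -1.70 for olaparib alone and 0.14 for knockdown alone, which was not called. EMB, IL31RA, MYH15 and COL4A6 fell with net log2 changes of -1.56, -1.57, -1.63 and -1.77, and each treatment alone lowered all 4.

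**Figure D2:**
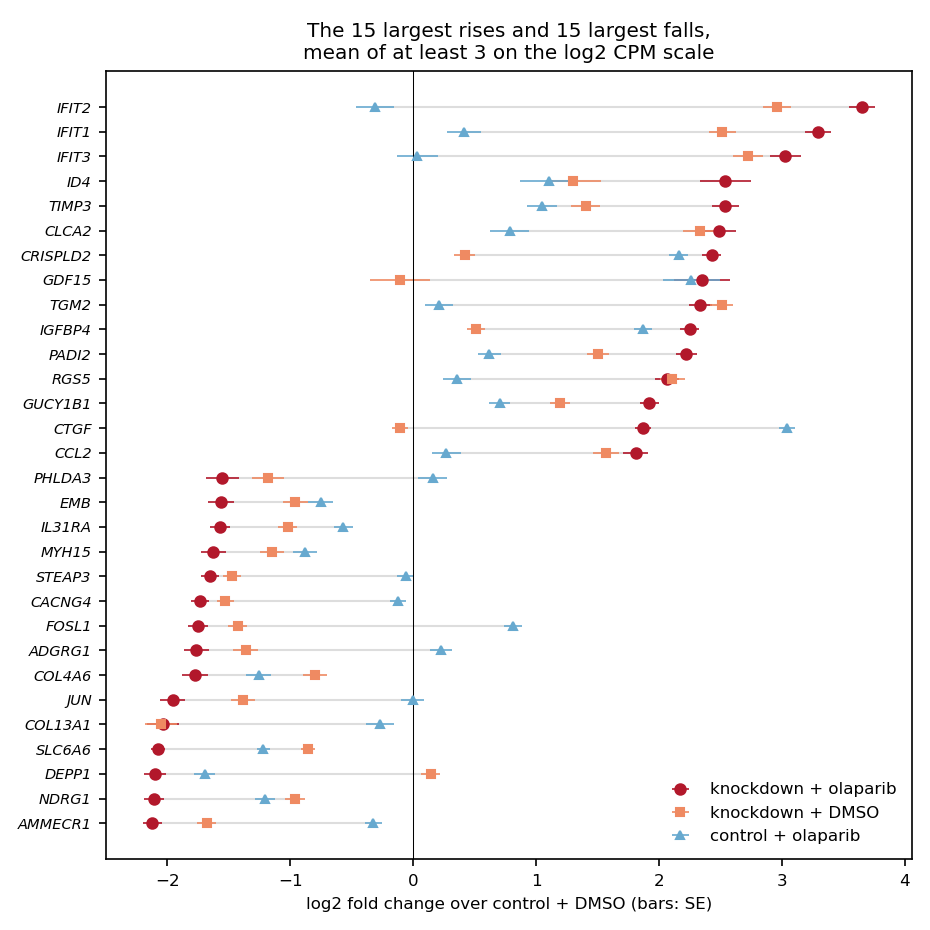
Genes were picked from called genes averaging 3 or more in log2 CPM whose compared libraries did not overlap. The 15 largest rises and 15 largest falls of the net change are shown as log2 fold changes over control cells with DMSO, with circles for the double treatment, squares for knockdown alone and triangles for olaparib alone, and bars for the SE. All 3 share the same control libraries; TGM2 and RGS5 lie near their squares, CRISPLD2 and GDF15 near their triangles, and NDRG1 and TIMP3 beyond both.

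Interferon-stimulated effectors had the highest median of the lists with more than 1 tested member. Of 29 tested members 23 rose and 1 fell, against 23.8% and 23.4% of all tested genes. Their median log2 change was 1.07, against -0.01 over all tested genes. Past 1.5-fold above were 16 of them, against 2.52% of all tested genes. For the same members the median was 1.07 for knockdown alone and -0.10 for olaparib alone. OASL, a relative of the oligoadenylate synthetases, had 15.98, 14.5 and 14.95 CPM in doubly treated cells, against 0.766, 0.991 and 0.891 CPM in control cells with DMSO. IFITM1, a membrane protein that blocks virus entry, had 12.7, 15.04 and 14.2 CPM in doubly treated cells, against 1.04, 1.399 and 1.604 CPM in control cells with DMSO. OASL rose 16.8-fold and did not stand above knockdown alone, whereas IFITM1 rose 10.3-fold and stood above each of the other groups, with 1.66 for olaparib alone and 1.58 for knockdown alone. IFITM1 has close relatives in IFITM2 and IFITM3. How reads shared between them were counted is not given in the sources used here, so the IFITM1 value is uncertain. HERC5, which attaches ISG15 to proteins, rose by 3.04, BST2, which tethers budding virus, by 2.38 and XAF1, an antagonist of XIAP, by 1.96 log2 units, all from control means under 1 CPM. ISG20, an exonuclease, was the member that fell, by 0.26 on the log2 scale, and its call was lost in 11 of 21 alternative settings.

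The letters of the interferon-stimulated response element, taken as GAAA, any 2 bases and GAAA again on either strand, were present in 67.7% of 31 promoters of these effectors and in 2.72% of the 14330 promoters of all tested genes that matched RefSeq. Of the promoters of genes past 1.5-fold above, 7.25% held them, and of those past 1.5-fold below, 1.76%. The promoter sequences of 3 effectors with large rises are printed because the element recurs in each, in capitals, from 250 bases before to 50 after the RefSeq start in GRCh38.p14. They are IFIT1 at chr10:89392373-89392672 on the plus strand, IFITM1 at chr11:313790-314089 on the plus strand and HERC5 at chr4:88456869-88457168 on the plus strand. A match on the minus strand reads TTTC, 2 bases and TTTC as printed, and the HERC5 promoter has 2 that overlap.
IFIT1: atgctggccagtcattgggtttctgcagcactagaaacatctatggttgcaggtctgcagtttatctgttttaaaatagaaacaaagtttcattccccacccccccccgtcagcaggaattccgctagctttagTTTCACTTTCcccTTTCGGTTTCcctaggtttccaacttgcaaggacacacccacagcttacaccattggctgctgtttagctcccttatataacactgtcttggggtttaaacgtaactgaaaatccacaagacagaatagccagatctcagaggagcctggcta
IFITM1: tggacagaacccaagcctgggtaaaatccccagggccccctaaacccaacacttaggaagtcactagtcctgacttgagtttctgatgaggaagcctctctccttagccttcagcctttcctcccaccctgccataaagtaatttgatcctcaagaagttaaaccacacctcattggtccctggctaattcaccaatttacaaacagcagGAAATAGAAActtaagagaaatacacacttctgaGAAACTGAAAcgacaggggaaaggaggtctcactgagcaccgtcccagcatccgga
HERC5: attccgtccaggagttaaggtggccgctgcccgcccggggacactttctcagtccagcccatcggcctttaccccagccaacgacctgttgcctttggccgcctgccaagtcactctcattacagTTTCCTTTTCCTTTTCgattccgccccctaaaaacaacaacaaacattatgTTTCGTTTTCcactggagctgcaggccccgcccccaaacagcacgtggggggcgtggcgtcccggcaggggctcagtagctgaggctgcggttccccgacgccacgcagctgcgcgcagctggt
IFIT1 holds 2 matches, IFITM1 2 and HERC5 3. A match describes letters and not a site in use.

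Of the 17 tested interferon receptors and signal transducers, 9 rose and 3 fell, against 23.8% and 23.4% of all tested genes. Only 1 fell without replicate 2 of the doubly treated cells or without replicate 1 of the control cells with DMSO. IFNGR1, the ligand-binding chain of the interferon gamma receptor, had 153, 167 and 177 CPM in doubly treated cells, against 82.7, 87.9 and 84.5 CPM in control cells with DMSO. It rose 1.94-fold (edgeR adjusted p = 2.07e-10), with log2 changes of 0.96 for the double treatment, 0.26 for olaparib alone and 0.58 for knockdown alone. SOCS1, the feedback inhibitor of JAK kinases, stood near 1 CPM, at 0.7402, 0.701 and 0.404 CPM in doubly treated cells, against 1.25, 1.11 and 1.25 CPM in control cells with DMSO. Its fall of 0.89 log2 units (edgeR adjusted p = 0.0282) was lost without replicate 2 or 3 of the doubly treated cells and without replicate 1 or 3 of the control cells, with adjusted p between 0.0535 and 0.0767.

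Sensors of double-stranded RNA rose in part. Of 12 tested, 5 rose and 2 fell. DDX58, which encodes RIG-I, IFIH1, which encodes MDA5, and DHX58, which encodes LGP2, rose by 1.45, 1.39 and 1.01 log2 units, with 1.58, 1.43 and 0.75 for knockdown alone. MAVS, the adaptor of RIG-I and MDA5 at mitochondria, fell by 0.51 log2 units (SE 0.07, edgeR adjusted p = 9.78e-06). Of 13 tested genes of cytosolic DNA sensing, 3 rose and 4 fell, shares near the 23.8% and 23.4% of all tested genes. Their median of 0.02 was near 0, from -0.03 to 0.05 over the alternatives. TMEM173, which encodes STING, had 9.31, 9.36 and 8.62 CPM in doubly treated cells, against 2.57, 2.62 and 2.91 CPM in control cells with DMSO. Olaparib alone lowered it (-0.85) and knockdown alone raised it (2.31), and the net log2 change was 1.75. ENPP1, which degrades the second messenger of that pathway, rose 2.12-fold, and IKBKE, an IKK-related kinase, fell 1.996-fold.

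Inflammatory genes rose in part. Of 15 tested NF-kB targets and cytokines, 8 rose and 1 fell, against 23.8% and 23.4% of all tested genes. Their median log2 change was 0.51. The number that fell was 2 without replicate 1 of the doubly treated cells or without replicate 2 of the control cells with DMSO. CCL2, a monocyte chemoattractant, had 19.6, 20.2 and 22.2 CPM in doubly treated cells, against 5.71, 6.06 and 5.82 CPM in control cells with DMSO (edgeR adjusted p = 6.38e-11). ICAM1, an adhesion molecule for leukocytes, rose 2.02-fold and CXCL1 rose by 0.87 log2 units, and both stood above every other group. CXCL3 rose by 1.14 log2 units. LIF, CXCL8 and IL6, cytokines from the list of described AP-1 targets, also rose, by 1.53, 1.05 and 1.04 log2 units. For IL6, control cells with olaparib stood at 8.33 ± 0.983 CPM, above doubly treated cells at 6.14 ± 0.867 CPM (mean ± SD, n = 3 each).

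Most genes of G2 and mitosis rose. Of 44 tested, 40 rose and none fell, against 23.8% and 23.4% of all tested genes, and in every alternative at least 38 rose. Their median log2 change was 0.53, beside 0.35 for olaparib alone and -0.09 for knockdown alone. TOP2A, the topoisomerase of mitotic chromosomes (Entrez 7153), had 1341, 1446 and 1616 CPM in doubly treated cells, against 797, 729 and 702 CPM in control cells with DMSO. It rose 1.98-fold (edgeR adjusted p = 1.11e-09), and its interaction was 0.43 (edgeR adjusted p = 0.00976), which held in all 20 alternatives. CDK1, the mitotic kinase, rose 1.79-fold, and CKS2, its small partner, 1.89-fold. The kinases PLK1 and AURKA, cyclin CCNB1 and the centromeric histone CENPA rose by 0.54, 0.62, 0.54 and 0.75 log2 units. NDC80, a kinetochore protein, rose by 0.48, although neither olaparib alone (0.09) nor knockdown alone (-0.09) was called. MKI67, which encodes the proliferation antigen Ki-67, was not called, with a log2 change of 0.35 (SE 0.15, edgeR adjusted p = 0.0856). In 17 of the 44 the doubly treated cells stood above each of the other groups, against a background of 2.44% of all tested genes, and that number ranged from 13 to 23 over the alternatives. A positive interaction was called for 19 of them, against 2.84% of all genes, but for only 6 without replicate 1 of the control cells with DMSO.

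Promoters of the G2 and mitosis genes shared short elements. CCAAT on either strand was in 76.1% of their 46 promoters, against 34.9% of all, and the cell cycle homology letters TTTGAA in 63.0%, against 10.3%. These motifs were chosen after the values were known, and the shares were not matched for base composition. The TOP2A promoter is printed because it carries several of each in capitals, 4 of CCAAT, which reads ATTGG here, and 2 of TTTGAA or its complement TTCAAA, none overlapping. It lies at chr17:40417847-40418146 on the minus strand of GRCh38.p14 and is written along the gene.
TOP2A: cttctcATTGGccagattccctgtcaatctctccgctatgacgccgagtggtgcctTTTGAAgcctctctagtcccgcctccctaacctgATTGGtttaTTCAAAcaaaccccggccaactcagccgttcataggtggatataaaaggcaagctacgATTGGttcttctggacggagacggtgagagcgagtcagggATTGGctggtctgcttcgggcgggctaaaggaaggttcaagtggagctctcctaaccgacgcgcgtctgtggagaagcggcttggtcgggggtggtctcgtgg

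Genes of homologous recombination, the pathway that repairs the breaks left by blocked PARP, rose in smaller steps. Of 33 tested, 20 rose and 1 fell, against 23.8% and 23.4% of all tested genes. Their median log2 change was 0.31, beside 0.03 for olaparib alone and 0.03 for knockdown alone. None was past 1.5-fold. In 6 of the 33 the doubly treated cells stood above each of the other groups, against 2.44% of all tested genes. Without replicate 2 of the doubly treated cells this number was 2. RAD54B, a motor protein of strand exchange, had 57.9, 57.5 and 67.95 CPM in doubly treated cells, against 37.6, 37.1 and 33.9 CPM in control cells with DMSO. Its log2 change of 0.75 (SE 0.08, edgeR adjusted p = 3.22e-07) exceeded the sum of the single changes by 0.54 (edgeR adjusted p = 0.00951). The helicase BLM rose by 0.73, the resection factor RBBP8 by 0.74, the BRCA1 partner BARD1 by 0.55, the nuclease EXO1 by 0.44 and RAD54L, a relative of RAD54B, by 0.46. BRCA1 itself had 45.1, 47.01 and 51.8 CPM in doubly treated cells, against 43.9, 41.96 and 41.6 CPM in control cells with DMSO. That is a log2 change of 0.17 (SE 0.07, edgeR adjusted p = 0.0443), and the call was lost in 11 of 21 alternatives, among them DESeq2, and without replicate 2 or 3 of either group. Olaparib alone lowered BRCA1 (-0.28) in control cells and raised it by 0.32 in knockdown cells, and this interaction of 0.59 (edgeR adjusted p = 0.00188) held in all 20 alternatives. RAD51D was the member that fell, by 0.23, and its call too was lost in 11 of 21 alternatives, while 3 members fell without replicate 3 of the knockdown cells with DMSO.

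The Fanconi and checkpoint genes moved likewise, with 16 of 28 higher and 2 lower and a median of 0.35, and 4 were lower without replicate 1 of the knockdown cells with DMSO. WEE1, the kinase that holds CDK1 inactive, had 42.7, 41.3 and 46.2 CPM in doubly treated cells, against 22.3, 20.3 and 19.6 CPM in control cells with DMSO, a 2.09-fold rise (edgeR adjusted p = 1.93e-09). The checkpoint kinase CHEK2 rose by 0.78, the helicase BRIP1 by 0.64, FANCA by 0.58 and FANCD2 by 0.40 log2 units. ATR, the apical kinase of stalled forks, and FANCF fell by 0.48 and 0.64. In end joining 4 of 15 rose and 3 fell, shares near the 23.8% and 23.4% of all tested genes. The number that fell was 5 without replicate 2 of the knockdown cells with DMSO and 2 with DESeq2. Their median log2 change was -0.09, and POLQ, the polymerase of microhomology-mediated joining, had the largest rise. POLQ had 49.2, 53.9 and 52.7 CPM in doubly treated cells, against 33.96, 29.95 and 27.3 CPM in control cells with DMSO. All 3 doubly treated libraries stood above all 9 others, which held 31.5 ± 2.94 CPM in knockdown cells with DMSO and 31.1 ± 3.45 CPM in control cells with olaparib (mean ± SD, n = 3 each). The net log2 change was 0.78 (SE 0.09, edgeR adjusted p = 1.14e-06), the single changes were 0.04 and 0.05, and the interaction of 0.68 (edgeR adjusted p = 0.005001) held in all 20 alternatives.

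The drug's own targets moved little. PARP1 had 405, 404 and 394 CPM in doubly treated cells, against 447, 439 and 457 CPM in control cells with DMSO, a log2 change of -0.16 (SE 0.04, edgeR adjusted p = 0.00596). PARP2 rose by 0.30 log2 units (SE 0.06, edgeR adjusted p = 0.0004104). HPF1, the cofactor that directs PARP1 to serine, fell by 0.51 log2 units. Of the 19 tested genes of the family and of poly(ADP-ribose) turnover, 8 rose and 4 fell, against 23.8% and 23.4% of all tested genes. TIPARP, a mono-ADP-ribosyltransferase, rose 2.14-fold and stood above every other group, at 159, 162 and 165 CPM in doubly treated cells, against 75.2, 74.7 and 77.3 CPM in control cells with DMSO. PARP10 rose by 1.52 log2 units from a control mean under 1 CPM, and PARP4, the vault PARP, fell by 0.83. NEIL3, a glycosylase that unhooks crosslinks, rose 1.92-fold.

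**Figure D3:**
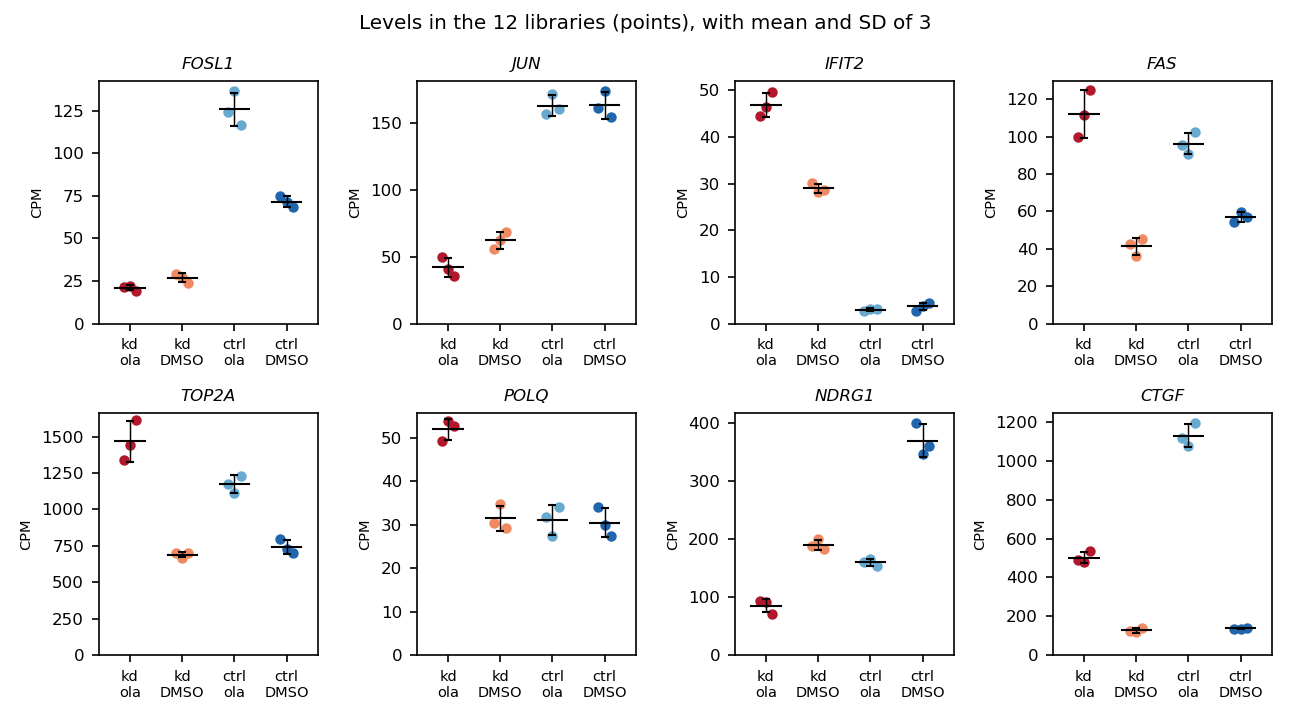
CPM of 8 genes in each library (points) with the mean and SD of 3 libraries per group, in doubly treated cells (kd ola), knockdown cells with DMSO (kd DMSO), control cells with olaparib (ctrl ola) and control cells with DMSO (ctrl DMSO). Axes start at 0; POLQ is high in the doubly treated libraries, IFIT2 in both knockdown groups and CTGF most in control cells with olaparib.

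Hypoxia and glycolysis genes had the lowest median of all lists. Of 36 tested, 28 fell and 3 rose, against 23.4% and 23.8% of all tested genes, and at least 27 fell in every alternative. Their median log2 change was -0.46, beside -0.22 for olaparib alone and -0.12 for knockdown alone. PGK1, phosphoglycerate kinase, had 721, 757 and 762 CPM in doubly treated cells, against 1605, 1454 and 1545 CPM in control cells with DMSO. BNIP3, a mitophagy receptor induced by hypoxia, had 66.4, 63.7 and 61.6 CPM in doubly treated cells, against 154, 141.5 and 137 CPM in control cells with DMSO. PGK1 fell 2.05-fold and BNIP3 2.26-fold, and both stood below every other group. The same held for NDRG1 and for PDK1, which closes pyruvate off from mitochondria and fell 2.05-fold. PFKFB4, a regulator of glycolytic flux, fell 2.79-fold and CA9, a pH-regulating carbonic anhydrase, 2.35-fold. Of the list, 12 members were below every other group, against a background of 1.89%, and between 10 and 14 over the alternatives. Smaller falls were those of GAPDH by 0.41, the glucose transporter SLC2A1 by 0.43 and LDHA by 0.19 log2 units. HIF1A and VEGFA were not called, at 0.09 and -0.04. The 3 that rose were EPAS1, which encodes HIF-2 alpha, by 1.10, EGLN3, a HIF prolyl hydroxylase, by 1.09, and SLC2A3, the neuronal glucose transporter, by 4.10 log2 units. SLC2A3 was low throughout, at 4.81, 4.75 and 4.51 CPM in doubly treated cells, against 0.348, 0.291 and 0.178 CPM in control cells with DMSO.

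The core letters of the hypoxia response element, ACGTG on either strand, were in 39.0% of 59 promoters of these genes and in 25.6% of all promoters. The motif was chosen after the values were known. BNIP3 is printed for its palindromic match, in capitals, where a match on each strand overlaps the other. It lies at chr10:131981874-131982173 on the minus strand of GRCh38.p14 and is written along the gene.
BNIP3: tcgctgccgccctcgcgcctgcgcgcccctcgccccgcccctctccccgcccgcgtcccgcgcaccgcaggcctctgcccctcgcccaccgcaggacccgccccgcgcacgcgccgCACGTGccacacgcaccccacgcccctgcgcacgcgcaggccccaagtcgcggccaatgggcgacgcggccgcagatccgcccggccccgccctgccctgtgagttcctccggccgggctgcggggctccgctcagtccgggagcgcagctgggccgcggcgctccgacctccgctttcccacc

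Immediate early and feedback genes of the MAPK pathway rose in part, with a smaller median than under olaparib alone. Of 24 tested, 12 rose and 2 fell, against 23.8% and 23.4% of all tested genes. Their median log2 change was 0.42 for the double treatment, 0.78 for olaparib alone and 0.09 for knockdown alone. A negative interaction was called for 8 of them, against 2.85% of all genes, and for 7 to 9 over the alternatives. SPRY4 and SPRY2, which restrain receptor tyrosine kinase signals, rose 2.75-fold and 2.596-fold and stood above every other group. The phosphatases DUSP4 and DUSP6 rose by 1.19 and 0.89, beside 1.64 and 1.27 for olaparib alone. MYC had 247, 238 and 229 CPM in doubly treated cells, against 160.2, 147 and 149 CPM in control cells with DMSO. In control cells with olaparib MYC stood at 446 ± 17.6 CPM (mean ± SD, n = 3), and the interaction was -0.39 (edgeR adjusted p = 0.00354). DUSP1, a phosphatase and described AP-1 target, was not called for the double treatment, at 33.7, 30.1 and 28.8 CPM in doubly treated cells, against 29.7, 25.9 and 29.8 CPM in control cells with DMSO. Olaparib alone raised DUSP1 by 1.37 log2 units, and its interaction was -0.999 (edgeR adjusted p = 4.01e-05). ETV1 rose by 1.95 and EGR3 fell by 2.51 log2 units, both at or below 2 CPM, and EGR1 fell by 0.51.

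Described targets of AP-1 and FRA-1 split. Of 24 tested, 7 rose and 9 fell, against 23.8% and 23.4% of all tested genes. Their median was -0.11, beside 0.37 for olaparib alone and -0.23 for knockdown alone. MMP1, interstitial collagenase, had 18.1, 16.4 and 17.5 CPM in doubly treated cells, against 39.1, 37.9 and 32.4 CPM in control cells with DMSO, a 2.11-fold drop (edgeR adjusted p = 8.89e-09). TNC, a matrix glycoprotein, fell by 0.66 log2 units and stood below every other group. EFNB2, the ligand of EPHB4, had 9.99, 10.7 and 11.3 CPM in doubly treated cells, against 15.1, 16.2 and 15.7 CPM in control cells with DMSO. The single treatments moved EFNB2 in opposite directions, by 2.09 with olaparib and by -1.95 with knockdown, and the interaction was -0.69 (edgeR adjusted p = 0.00537). AP-1 letters TGANTCA were in 16.7% of 30 promoters of the list, in 8.8% of promoters of genes past 1.5-fold below, in 6.09% of those past 1.5-fold above and in 4.94% of all. These windows hold no distal enhancers.

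Targets of YAP and TEAD rose in 12 of 23 cases and fell in 2, against 23.8% and 23.4% of all tested genes. CTGF had 493, 479.7 and 536 CPM in doubly treated cells, against 135, 137 and 140.2 CPM in control cells with DMSO. In control cells with olaparib it stood at 1131 ± 59.01 CPM and in knockdown cells with DMSO at 127 ± 11.9 CPM (mean ± SD, n = 3 each). The net rise was thus 3.66-fold, and the interaction was -1.06 (SE 0.09, edgeR adjusted p = 1.60e-06). CYR61, also called CCN1, rose 2.36-fold with an interaction of -0.37, and DLC1, a RhoGAP, rose 2.43-fold. Of 24 TGF-beta and activin targets, 13 rose and 5 fell. ID1 rose 2.51-fold and ID3 2.41-fold, while LTBP1, which stores latent TGF-beta, fell by 0.39 log2 units. Of 21 tested actins and smooth muscle contractile genes, 7 rose and 5 fell. Among these ACTB, beta-actin, fell by 0.53 log2 units and stood below every other group.

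Genes of the mesenchymal state fell more often than they rose, 12 against 7 of 23, and its transcription factors moved both ways. Over all tested genes 23.4% fell and 23.8% rose. SNAI2, which encodes SLUG, had 38.4, 37.8 and 39.1 CPM in doubly treated cells, against 15.3, 16.03 and 18.4 CPM in control cells with DMSO. SNAI1 and ZEB1, of the same class of repressors, rose by 1.15 and 0.88 log2 units. NT5E, which encodes CD73, had 183, 187 and 194 CPM in doubly treated cells, against 432, 402 and 381 CPM in control cells with DMSO. Other transcription factors of this list were called lower, among them the homeobox protein PRRX1, which fell by 0.93 log2 units. The kinase AXL fell by 0.40 and VIM by 0.22 log2 units. For AXL and VIM the olaparib change alone had the opposite sign, 0.29 and 0.45. Of 9 tested epithelial genes 4 rose and 3 fell, among them CDH1, E-cadherin, higher by 1.65 at or below 1.5 CPM, and KRT15, a basal keratin, lower by 2.61 log2 units.

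Death and p53 genes gave a mixed picture. Of 28 tested p53 targets, 13 rose and 3 fell, against 23.8% and 23.4% of all tested genes. CDKN1A, which encodes p21, was not called, at 40.7, 38.2 and 36.5 CPM in doubly treated cells, against 42.1, 39.3 and 46.4 CPM in control cells with DMSO (log2 -0.15, SE 0.07, edgeR adjusted p = 0.0819). The death receptor FAS had 99.7, 111 and 125 CPM in doubly treated cells, against 54.1, 59.6 and 57.1 CPM in control cells with DMSO, a 1.97-fold rise. Knockdown alone lowered FAS (-0.46), and its interaction was 0.68 (edgeR adjusted p = 0.00467). CASP8, the caspase that FAS recruits, rose 1.64-fold. The BH3-only genes BCL2L11, which encodes BIM, and PMAIP1, which encodes NOXA, rose 2.08-fold and 1.601-fold, and PLK2 rose by 0.75 log2 units.

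**Figure D4:**
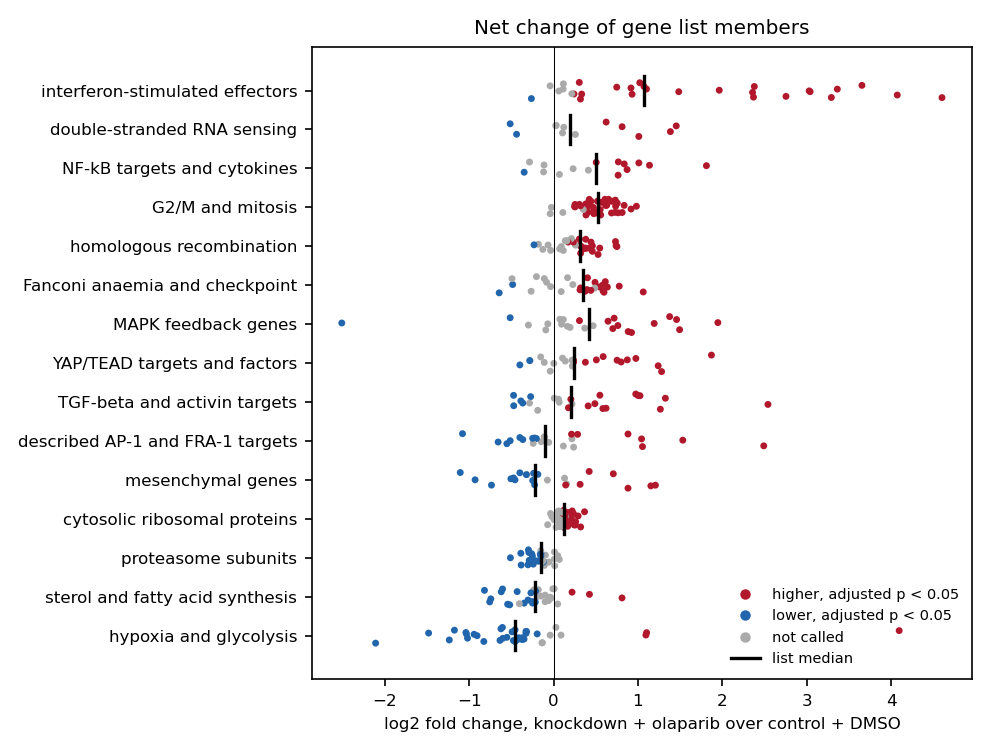
Each point is a tested member of 1 gene list, placed by its log2 fold change in doubly treated cells over control cells with DMSO, red where higher and blue where lower at an adjusted p below 0.05 and grey where not called; the bar is the list median. Interferon effectors have a median of 1.07, G2 and mitosis genes of 0.53 and hypoxia and glycolysis genes of -0.46.

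A stricter question is which genes in doubly treated cells differ in 1 direction from all 3 other groups. By an intersection-union test on the same fit, 525 genes (4.33%) did, 296 above (2.44%) and 229 below (1.89%) every other group. Without replicate 2 of the doubly treated cells the numbers were 194 and 144, and without replicate 2 of the control cells with olaparib the lower count was 150. Among genes averaging 3 or more in log2 CPM, these were ranked by the smallest of their 3 log2 fold changes against the other groups. The first 8 above were ID4, TIMP3, IFIT1, GUCY1B1 and PADI2, described above, with ERCC6, APOLD1 and POLQ. ERCC6 had 114, 125 and 127 CPM in doubly treated cells, against 39.2, 48.5 and 43.5 CPM in control cells with DMSO, but it overlaps PGBD3 and their reads could not be separated here. APOLD1, an apolipoprotein L domain gene, rose 2.08-fold. The first 8 below were NDRG1 and SLC6A6, with EIF4EBP2, CAP2, FNDC1, CEND1, AHNAK2 and MN1. EIF4EBP2, a brake on cap-dependent translation, had 90.002, 96.9 and 98.8 CPM in doubly treated cells, against 224, 234 and 220.5 CPM in control cells with DMSO. CAP2, an actin-binding protein, fell 2.78-fold, FNDC1 2.31-fold and CEND1 by 1.32 log2 units. AHNAK2, with a 2.25-fold drop, lost its place below every other group without any 1 of the 3 doubly treated libraries, of the 3 control libraries with olaparib, or control replicate 1 with DMSO. MN1, with a 2.16-fold drop, lost it when all libraries were thinned to the smallest total.

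The interaction was called for 690 genes (5.69%), 344 with a net change above the sum of the single changes on the log2 scale (2.84%) and 346 below it (2.85%), and 26 of the 690 exceeded 2-fold. The number depends on single libraries. It was 1130 without replicate 1 of the doubly treated cells and 343 without their replicate 2. It was 423 without replicate 2 of the knockdown cells with DMSO. Without replicate 1 or 2 of the control cells with olaparib it was 308 and 321, and without replicate 1 or 2 of the control cells with DMSO 434 and 349. Of the genes named here, 23 kept an interaction call in every alternative. The largest of these was that of TXNIP, a glucose-regulated inhibitor of thioredoxin. TXNIP had 33.9, 34.1 and 38.3 CPM in doubly treated cells, against 9.12, 11.1 and 11.05 CPM in control cells with DMSO. In control cells with olaparib it reached 59.9 ± 3.89 CPM and in knockdown cells with DMSO 20.4 ± 0.958 CPM (mean ± SD, n = 3 each), so each single treatment raised it and the interaction was -1.73 (SE 0.12, edgeR adjusted p = 1.13e-07).

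Some genes moved far under each treatment alone and showed little net change. The 6 given here were chosen for opposed single changes and a small net change, so their values are a description without a test. BMP6, a bone morphogenetic protein, had 39.2, 35.5 and 35.5 CPM in doubly treated cells, against 35.4, 32.5 and 31.4 CPM in control cells with DMSO. Knockdown cells with DMSO stood at 13.8 ± 1.61 CPM and control cells with olaparib at 80.96 ± 3.99 CPM (mean ± SD, n = 3 each). The natriuretic peptide receptor NPR3, LURAP1L and the kinase ABL2 showed the same layout, with net log2 changes of 0.01, -0.06 and -0.09, olaparib changes of 1.16, 1.06 and 1.000, and knockdown changes of -1.003, -1.15 and -0.86. NECAB1, a calcium-binding protein, and BOC, a coreceptor of hedgehog ligands, were opposed the other way, with net changes of 0.07 and -0.15, olaparib changes of -1.33 and -1.18, and knockdown changes of 0.93 and 0.97. The net values of BOC, LURAP1L and NECAB1 moved by more than 1 SE when 1 control library with DMSO was left out.

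**Figure D5:**
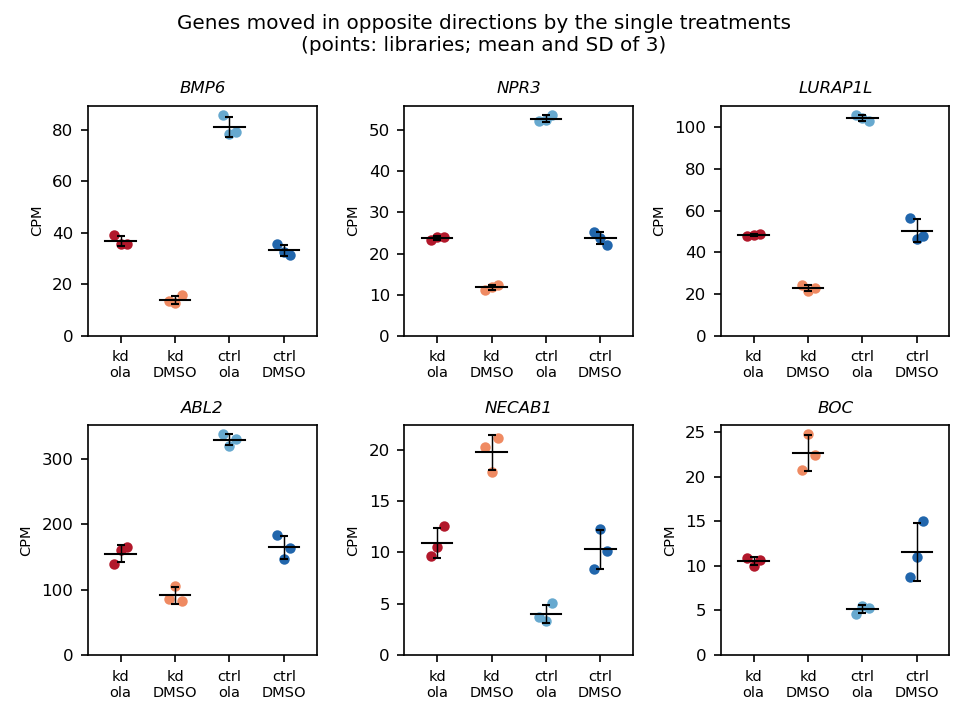
CPM of the 6 genes with opposed single changes in each library (points), with the mean and SD of 3 libraries, in doubly treated cells (kd ola), knockdown cells with DMSO (kd DMSO), control cells with olaparib (ctrl ola) and control cells with DMSO (ctrl DMSO), from 0. In BMP6, NPR3, LURAP1L and ABL2 the knockdown group with DMSO is lowest and the control group with olaparib highest; in NECAB1 and BOC the order is the reverse.

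The authors' deposited table for the same contrast listed 12106 genes, of which 2948 were higher and 2897 lower at their false discovery rate below 0.05. For the 12092 genes in both, the log2 fold change in the authors' deposited table differed from the fit used here by at most 0.177.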

How the data were processed

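RNA-seq libraries of BT549 cells were analysed from the read counts per gene that the authors deposited for 12 libraries, 3 in each of 4 groups. The submitters' processing notes name bcl2fastq 2.20.0.422 for the reads; aligner, counter, build and strand setting are not given in the sources used here. Among the files, the authors' deposited table of log2 fold changes and false discovery rates (FDR, p-values adjusted by the authors), per the file headers from likelihood-ratio statistics, was used only for the closing comparison. The deposited rescaled forms of the counts were not used.

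Genes above 1 CPM in at least 3 libraries were fitted over all 12 libraries with edgeR 4.0.16 (TMM, robust quasi-likelihood F test, R 4.3.3, limma 3.58.1), with Benjamini-Hochberg adjustment over 12122 genes and calls below 0.05. Printed CPM are scaled to library totals multiplied by their TMM factors, and the filter at 1 CPM used library totals alone. An SE is the log2 fold change over the square root of its F statistic. The 1.5-fold test was edgeR's glmTreat. The call below or above every other group took the largest p of 3 contrasts of 1 sign. The interaction contrasted the olaparib change with and without knockdown. The fit was tried on simulated data whose spread, the same for every gene, was taken from the fit to these libraries. Fewer genes were changed there than were called here. DESeq2 1.42.0 and the settings of the closing section were alternatives. Totals ran from 13763179 to 39715900 counts, and the depth limits genes near 1 CPM most. Promoters were matched by Entrez identifier to RefSeq GRCh38.p14 for 9856 genes.

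The members and the 47 gene lists were chosen with earlier results of these data known. Genes were named by rule: FOSL1 and JUN, the 15 largest rises and falls, up to 3 rises and 3 falls per list, 8 genes above and 8 below every other group, and 6 with opposed single changes. In that rule the 15 largest rises and falls came from called genes averaging 3 or more in log2 CPM whose compared libraries did not overlap. The text names 168 genes, of which 37 lie outside that rule and were chosen after their values were seen. A few genes, 1 of them named by the rule, are not reported here.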

Additional observations from a re-analysis of the deposited data

Results flagged for a closer look

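For 35 named genes the olaparib change in knockdown cells differed from that in control cells, by the interaction contrast of edgeR's quasi-likelihood test with Benjamini-Hochberg adjustment over all tested genes. Each value is the log2 change by olaparib in knockdown cells minus that in control cells.

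The contrast stayed called in every alternative for 23 of the 35. The genes with a positive value were IFIT2 1.001, TOP2A 0.43, RAD54B 0.54, BRCA1 0.59, FANCD2 0.53, POLQ 0.68 and FAS 0.68. The genes with a negative value were FOSL1 -1.14, CTGF -1.06, SPRY4 -0.45, DUSP4 -0.36, MYC -0.39, DUSP1 -0.999, EFNB2 -0.69, TNC -0.57, CYR61 -0.37, LTBP1 -0.49, ACTB -0.27, HMGCS1 -0.39, TXNIP -1.73, VIM -0.41, DUSP6 -0.57 and COL1A1 -0.70. For BRCA1 the drug changed the level by 0.32 in knockdown cells and by -0.28 in control cells. For LTBP1, which stores latent TGF-beta, these values were -0.25 and 0.25.

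For the other 12 the contrast was lost in at least 1 alternative. They were JUN -0.57, ADGRG1 -0.63, DEPP1 -0.55, SOCS1 -2.08, CDK1 0.38, NDC80 0.48, BLM 0.53, PARP2 0.35, APOLD1 0.46, EIF4EBP2 -0.28, CAP2 -0.45 and FN1 -0.64. SOCS1 lost it under DESeq2 alone, at 0.404 to 2.75 CPM over the 12 libraries.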

How the results depend on the processing

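No called named gene reversed under any alternative. Of uncalled ones, BOC was at -0.30 without control replicate 1 with DMSO and 0.08 without its replicate 3. The test past 1.5-fold counted 201 higher and 144 lower genes with DESeq2, and the interaction counted 553 higher genes with library totals alone. Leaving out 1 library at a time gave 2398 to 2989 higher and 2329 to 2948 lower genes for the net change, 249 to 310 and 184 to 261 past 1.5-fold, 194 to 318 and 144 to 248 apart from every other group, and 140 to 525 and 168 to 605 for the interaction. The cause was not tested. The labels do not say whether same-numbered libraries belong together, and the main fit did not pair them. Correlations of same-numbered libraries' deviations ran from -0.27 to 0.20. With 3 libraries per group these values cannot settle the question. With replicate number as a block the counts were 2818 and 2811, 299 and 246, 283 and 209, and 304 and 309, and AHNAK2 was not called below every other group. The share of calls that were higher ran from 46.4% to 52.7%. Counting depth limits genes near 1 CPM, such as SOCS1 and PARP10.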

Other observations

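Protein synthesis and turnover genes moved in small steps. Their counts are to be read beside the 23.8% of all tested genes that rose and the 23.4% that fell. Of 47 tested cytosolic ribosomal proteins 26 rose and none fell, with a median log2 change of 0.13, and between 19 and 27 rose over the alternatives. RPL12 rose by 0.37 log2 units, beside 0.44 for olaparib alone. Of 30 proteasome subunits 18 fell and none rose, with a median of -0.15, and between 13 and 21 fell over the alternatives. PSMD12 and PSMD1, of the regulatory particle, fell by 0.51 and 0.39. Of 31 genes of sterol and fatty acid synthesis 15 fell and 3 rose. HMGCS1, an early enzyme of the sterol pathway, had 112, 119 and 123 CPM in doubly treated cells, against 204, 199.6 and 189.7 CPM in control cells with DMSO. It stood below every other group. ELOVL6, a fatty acid elongase, fell by 0.82 and INSIG2, which retains the sterol sensor, by 0.76 log2 units.

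Genes of the integrated stress and unfolded protein response split, 15 of 31 higher and 4 lower. Without replicate 2 of the control cells with DMSO 8 were higher, without their replicate 3 or replicate 2 or 3 of the doubly treated cells 9, and without control replicate 1 with DMSO 2 were lower. The single treatments had medians of opposite sign, 0.32 for olaparib alone and -0.37 for knockdown alone. Of 20 heat shock genes 10 fell and 3 rose, among them HSPB1, a small chaperone, lower by 0.80 log2 units. Of 23 IGF system and FOXO genes 10 rose and 7 fell. IGF1R, the receptor, had 91.3, 91.1 and 93.4 CPM in doubly treated cells, against 46.3, 42.2 and 44.4 CPM in control cells with DMSO. IGFBP1, a secreted binding protein below 2 CPM on average in every group, fell by 1.70. Of 24 collagens and laminins 8 rose and 5 fell, with COL1A1 and COL3A1 higher by 0.87 and 0.77. Of 24 Wnt genes 9 rose and 7 fell, with WNT7B, a ligand, higher by 1.76 at a low level and TCF7, a transcription factor, lower by 1.36. Over all tested genes 23.8% rose and 23.4% fell. TEK, an endothelial receptor kinase, was the only tested gene of its marker list and rose by 1.84 from a control mean of 0.694 ± 0.429 CPM (mean ± SD, n = 3), while the other endothelial markers were at or near 0.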
